A study of Homo sapiens with 12 samples.

Results

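AP-1 is a family of paired transcription factors, and the genes described here are 10 of its subunits: FOS, FOSB, FOSL1, FOSL2, JUN, JUNB, JUND, ATF3, BATF3 and MAFF. They were chosen by gene symbol from 60617 genes, and each symbol gave 1 gene ID. The rule held no measured value, but the choice was made with earlier results of these data known. RNA had been sequenced from A549 cells, an established line of human lung adenocarcinoma cells, in 12 libraries of 2 experiments. In the knockdown, 3 libraries of A549 cells with an shRNA against BTLA (shBTLA) stood against 3 libraries of A549 cells with the control vector (shControl), labelled wild type for BTLA. In the sort, 3 libraries of the A549 subpopulation with low BTLA on its surface (BTLA low) stood against 3 of the subpopulation with high BTLA (BTLA high), separated by flow cytometry with a labelled antibody. Per the methods of the study, shRNAs were carried in by lentivirus, and infected cells were selected with puromycin, neomycin or both. Cells for the sort were treated with a blocking reagent before the antibody. No further treatment is named. BTLA is an inhibitory receptor best known from lymphocytes, and the experiments asked which genes differ when tumor cells hold less of it. The sources used here do not say which shRNA was sequenced, whether replicate libraries are separate cultures, or how long after the sort RNA was taken. The study also kept sorted cells in culture, and its text does not tell apart RNA taken before and after that. The p-values therefore rest on a spread between libraries that may be technical.

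AP-1 subunits share a basic region that grips DNA and a leucine zipper that joins them in pairs. JUN proteins pair with themselves or with FOS proteins, while FOS proteins need a JUN partner to bind well. The family is known as an end point of MAPK signaling: ERK and JNK kinases raise the transcription of FOS and JUN within minutes of a growth or stress signal, and FOSL1 accumulates under sustained ERK activity. In carcinoma cells of the lung, FOSL1 and JUN are known for their part in growth, migration and invasion.

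All 10 subunits had enough reads to be tested in both experiments. Levels are given as RPM (reads per 1000000 reads assigned to genes), and differences as log2 fold changes on log2(RPM + 0.1), which understate those of low genes, with their standard errors (SE). In shBTLA against shControl, 1 of the 10 passed an adjusted p under 0.05 upward (FOS) and 1 downward (JUNB), and 8 did not pass. Of all 16630 genes tested in that comparison 1.47% passed, 0.782% upward and 0.686% downward. These were 130 higher and 114 lower genes, and without shBTLA 1, shBTLA 2, shBTLA 3 or shControl 3 they were 22 to 28 higher and 3 to 7 lower. Without shControl 1 they were 291 higher and 193 lower, and without shControl 2 208 higher and 263 lower. In BTLA low against BTLA high, 4 rose (FOS, ATF3, JUND and MAFF), 5 fell (FOSL1, JUN, JUNB, FOSL2 and BATF3) and 1 (FOSB) did not pass. Of all 16911 genes tested there 25.4% passed, 19.1% upward and 6.25% downward. The median log2 fold change of the 10 was -0.06 in the knockdown and -0.07 in the sort, beside -0.02 and 0.18 over all genes tested. Their median change without regard to sign was 0.49 and 0.55, beside 0.18 and 0.30 over all genes.

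By the threshold of the study, an unadjusted p of at most 0.05 with a change of 1 or more on the log2 scale in either direction, FOS was higher and 0 subunits were lower in shBTLA cells, beside 1.74% and 1.03% of all genes. At an unadjusted p under 0.05 alone, 2 were higher and 4 lower there, beside 898 and 892 of all 16630 genes. For limma voom at an adjusted p under 0.05, 0 were higher and 1 lower, beside 129 and 114 of all genes. FOS was higher and FOSL1 lower by the threshold of the study in BTLA low cells, beside 7.03% and 1.31%. The 3 libraries of the groups did not overlap for 7 subunits in the knockdown, 2 above (9.14% of all genes) and 5 below (8.77%), beside 17.9% of all genes on either side. They did not overlap for 9 in the sort, 4 above (30.4%) and 5 below (11.4%), beside 41.8%.

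**Figure D1:**
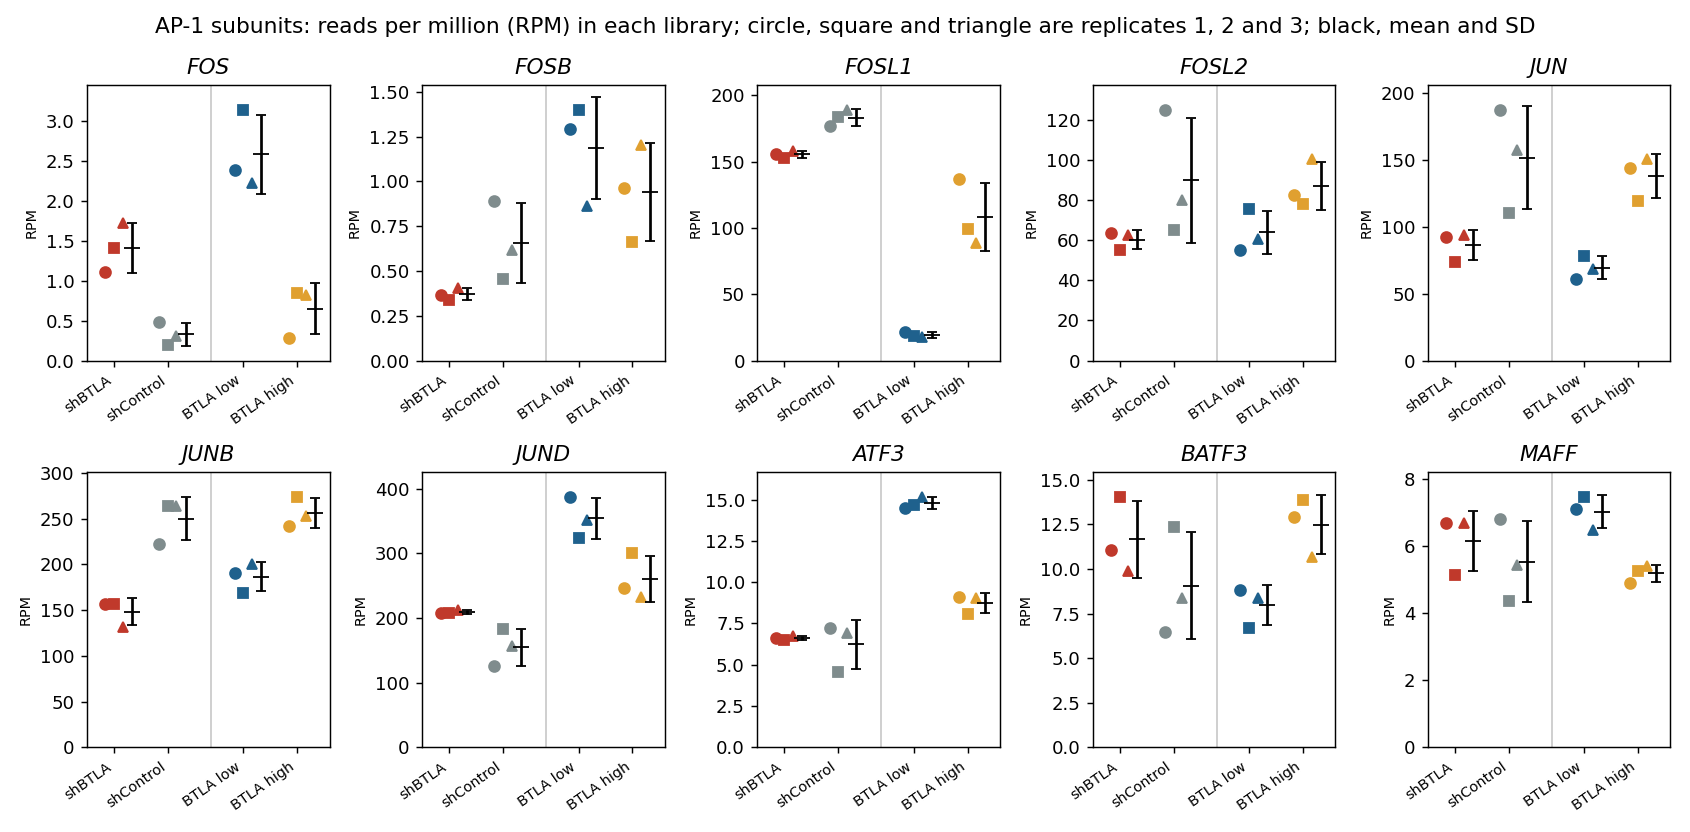
Level in RPM (vertical axis from 0) of each AP-1 subunit in each library, with shBTLA and shControl left of the grey line and BTLA low and BTLA high right of it; circle, square and triangle are replicates 1, 2 and 3, and the black mark gives the mean and SD (n = 3). FOSL1 stands at 17.4 to 21.7 RPM in BTLA low and at 88.5 to 137 RPM in BTLA high, while FOS is above its counterpart group in both experiments.

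The libraries held 35654912 to 41748767 reads assigned to genes in shBTLA, 29130357 to 38809988 in shControl, 29383169 to 41474710 in BTLA low and 31650496 to 42488067 in BTLA high. BTLA itself had 0 reads apart from 2 in shControl 3 and 2 in BTLA high 3, so it cannot check the labels at this depth. TNFRSF14, the gene of its ligand HVEM, had 0 reads in each shBTLA library, against 2, 4 and 2 in shControl, and 4, 12 and 5 in BTLA low, against 0 in each BTLA high library. The epithelial markers expected of A549 cells summed to 16047 to 18653 RPM in shBTLA, against 9565 to 14450 in shControl, and to 21196 to 24647 in BTLA low, against 16658 to 20890 in BTLA high. KRT8, KRT18 and KRT7 carried these sums, and the markers did not move one way. In BTLA low 5 of 7 rose and 2 fell, beside 19.1% and 6.25% of all genes. Under median scaling, where 1617 of all genes were higher and 3096 lower, 3 rose, and KRT8 and KRT18 did not pass. Those that fell were KRT7 (-0.54 on the log2 scale, limma adjusted p = 0.0021) and CLDN4 (-0.55, limma adjusted p = 0.0116), CLDN4 not with the replicate block or without BTLA low 3. In shBTLA, where 1.47% of all genes passed, the only one of 8 to pass, CLDN4, fell (-0.989, limma adjusted p = 0.0164). It did not pass on the RPKM or with any 1 of the shBTLA libraries or shControl 3 left out. The median of the list there was 0.42, beside -0.02 over all genes. At an unadjusted p under 0.05, 4 were higher and 1 lower, beside 898 and 892 of all 16630 genes. With the replicate block 4 rose and 1 fell, beside 260 and 285 of all genes. Under median scaling 2 rose, without shControl 1 4 and without shControl 2 3. Lymphocyte markers reached at most 2.13 RPM in sum, myeloid markers 6.76 and fibroblast and endothelial markers 5.75, with CD3D, CD3E, CD2, MS4A1, AIF1, CD163 and DCN at 0 reads in all libraries. The myeloid sum was 4.15 to 4.73 RPM in BTLA low, against 5.91 to 6.00 in BTLA high, and 1 of its 3 genes tested, ITGAM, fell there (1.01 ± 0.340 RPM in BTLA low and 2.995 ± 0.451 in BTLA high, SD, n = 3 each, log2 fold change -1.52, limma adjusted p = 0.0039). Of the 13 heat shock genes tested, 0 passed in the knockdown, beside 1.47% of all genes. There 0 were also below an unadjusted p of 0.05, beside 898 higher and 892 lower of all 16630 genes, and 0 passed by limma voom. In the sort 1 of 13 rose and 3 fell, beside 19.1% and 6.25% of all genes. Under median scaling 1 rose and 7 fell, where 1617 of all genes were higher and 3096 lower. The summed level of the heat shock list was 7553 to 7857 RPM in BTLA low, against 9229 to 9412 in BTLA high. Mitochondrially encoded genes took 6.76% to 7.24% of reads in BTLA low, against 5.25% to 5.79% in BTLA high, and ribosomal protein genes 9.60% to 11.5% in shBTLA, against 6.92% to 11.7% in shControl. The part of these shifts in the results was not tested. shControl 1 stood farthest from the other knockdown libraries on the first principal component, which held 46.7% of their variance. In bulk RNA, fewer cells that make a transcript and less of it in each cell cannot be told apart.

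The stretches of DNA around the transcription starts are shown for FOS, FOSL2, JUN, JUNB and JUND, the subunits with an entry whose libraries lay on the same side in both experiments. They are RefSeq sequences of GRCh38.p14, from 250 bases before to 50 after each start, written 5′ to 3′ on the strand of the gene. Capitals mark matches on either strand to the letters TGANTCA (the TPA response element, the classical AP-1 site), TGACATCA (its longer form), TGACGT (the first part of the cyclic AMP response element), the whole element TGACGTCA, which holds TGACGT on both strands, or TATAAA (a core promoter element bound by TBP).
FOS, chr14:75278578-75278877, plus strand: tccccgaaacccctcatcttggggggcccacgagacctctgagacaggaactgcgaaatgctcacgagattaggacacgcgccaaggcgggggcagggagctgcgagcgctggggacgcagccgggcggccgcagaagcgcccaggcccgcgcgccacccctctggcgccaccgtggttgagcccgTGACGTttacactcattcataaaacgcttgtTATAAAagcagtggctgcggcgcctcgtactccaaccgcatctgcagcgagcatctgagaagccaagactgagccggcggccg
FOSL2, chr2:28392608-28392907, plus strand: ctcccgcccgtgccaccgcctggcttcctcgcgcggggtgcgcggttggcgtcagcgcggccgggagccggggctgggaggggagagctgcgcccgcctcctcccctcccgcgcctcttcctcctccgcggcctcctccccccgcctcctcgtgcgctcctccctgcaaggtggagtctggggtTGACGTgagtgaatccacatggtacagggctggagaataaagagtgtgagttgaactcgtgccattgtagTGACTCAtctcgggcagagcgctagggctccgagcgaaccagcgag
JUN, chr1:58783998-58784297, minus strand: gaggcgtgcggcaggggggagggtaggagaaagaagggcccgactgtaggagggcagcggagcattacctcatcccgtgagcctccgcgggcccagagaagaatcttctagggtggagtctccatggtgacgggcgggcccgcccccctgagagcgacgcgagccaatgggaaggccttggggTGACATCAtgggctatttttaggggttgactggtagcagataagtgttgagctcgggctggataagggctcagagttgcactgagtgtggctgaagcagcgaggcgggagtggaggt
JUNB, chr19:12791236-12791535, plus strand: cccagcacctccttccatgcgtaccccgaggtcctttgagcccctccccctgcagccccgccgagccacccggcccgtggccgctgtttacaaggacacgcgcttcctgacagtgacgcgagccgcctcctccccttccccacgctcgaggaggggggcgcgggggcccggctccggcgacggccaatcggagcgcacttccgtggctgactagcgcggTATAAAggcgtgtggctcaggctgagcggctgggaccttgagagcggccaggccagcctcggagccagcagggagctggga
JUND, chr19:18281573-18281872, minus strand: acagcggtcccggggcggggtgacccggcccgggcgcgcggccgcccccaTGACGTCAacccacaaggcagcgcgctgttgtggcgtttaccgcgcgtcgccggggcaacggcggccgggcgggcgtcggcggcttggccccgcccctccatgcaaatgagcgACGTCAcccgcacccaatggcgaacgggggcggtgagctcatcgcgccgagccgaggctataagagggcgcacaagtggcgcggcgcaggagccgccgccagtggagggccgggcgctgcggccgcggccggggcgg

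In all, 8 of the 10 subunits matched, with 10 entries, since ATF3 and MAFF each have a second start. FOSL1 and BATF3 are named only. TGACGT was in 5 of the 10 windows (FOS, FOSB, FOSL2, JUND and MAFF), beside 7.98% of the 35116 promoter windows of the table. TGACATCA was in 2, JUN and the upstream start of ATF3, beside 2.61%, and TGACGTCA in 2, JUND and MAFF, beside 1.85%. TGANTCA was in 1, that of FOSL2, beside 7.71%. TATAAA was in 4 (FOS, FOSB, JUNB and the downstream start of ATF3), beside 11.5%, and the CArG box, to which the serum response factor binds, in 0, beside 1.29%. DNA farther than 250 bases before a start was not searched, so the 0 does not say that these genes lack the box. A match is a description of letters and not of a bound site. FOS and FOSL2 share TGACGT and lay on opposite sides in both experiments.

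FOSL1, which encodes FRA1, was the subunit with the largest difference in the sort. It is encoded on chromosome 11 (GRCh38, 65892049 to 65900573, minus strand). It had 21.7, 18.2 and 17.4 RPM in BTLA low 1, 2 and 3, against 137, 99.3 and 88.5 RPM in BTLA high 1, 2 and 3. The highest BTLA low library lay far below the lowest BTLA high library, on 566 to 754 reads against 2801 to 4836. The means were 19.1 ± 2.29 RPM in BTLA low and 108 ± 25.5 RPM in BTLA high (SD, n = 3 each), 5.67-fold lower in BTLA low. Its log2 fold change was -2.48 (SE 0.16, limma adjusted p = 3.5e-05), and FOSL1 was the sixth gene from the most lowered of 16911. It passed under all 13 alternatives, with log2 fold changes of -2.74 to -2.30.

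In the knockdown FOSL1 was far closer between the groups. It had 156, 153 and 158 RPM in shBTLA 1, 2 and 3, against 177, 184 and 189 RPM in shControl 1, 2 and 3. The groups did not overlap, but the log2 fold change of -0.24 (SE 0.09, 95% interval -0.45 to -0.03) had an adjusted p of 0.378 from limma. The difference of the FOSL1 changes, knockdown minus sort, was 2.24 on the log2 scale (SE 0.19, limma adjusted p = 0.00036 over 17924 genes). FOSL1 was the subunit whose change passed this test, 1 of 10 upward and 0 downward, beside 0.982% and 3.22% of all genes and 4.2% in all, and it passed under all 18 alternatives. Without shControl 2, ATF3 (-0.85, adjusted p = 0.011) and BATF3 (1.28, adjusted p = 0.0122) passed it too. In that setting 622 of 17830 genes were higher and 1888 lower, beside 176 and 577 of 17924 with all libraries.

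FOS, the founding member of the family and a classical immediate early gene, was scarce in all libraries and higher in both shBTLA and BTLA low cells. It is encoded on chromosome 14 (GRCh38, 75278826 to 75282230, plus strand), and its window above holds a TGACGT and a TATAAA ahead of the start. It had 1.11, 1.40 and 1.72 RPM in shBTLA 1, 2 and 3, against 0.481, 0.194 and 0.309 RPM in shControl 1, 2 and 3. These are 42, 50 and 72 reads against 14, 6 and 12, and the groups did not overlap. This is a log2 fold change of 1.85 (SE 0.35, limma adjusted p = 0.0439). This call was lost without shBTLA 1 (adjusted p = 0.164), shBTLA 2 (0.217), shBTLA 3 (0.268) or shControl 3 (0.206), and with limma voom (0.0535) or no filter on low genes (0.114).

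In the sort FOS had 2.38, 3.13 and 2.22 RPM in BTLA low 1, 2 and 3, against 0.284, 0.847 and 0.821 RPM in BTLA high 1, 2 and 3. All BTLA low libraries were above all BTLA high libraries, with 70, 130 and 72 reads against 10, 36 and 26. The log2 fold change was 1.93 (SE 0.36, limma adjusted p = 0.0050), and it passed under all 13 alternatives. The difference between the FOS changes, knockdown minus sort, was -0.08 on the log2 scale, with a 95% interval of -1.21 to 1.06, so changes unlike by a factor of 2 in either direction are within it.

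FOSB, whose short splice form is known for its long life in neurons, was scarcer than FOSL1 and FOSL2 in each group. It had 0.368, 0.337 and 0.407 RPM in shBTLA, against 0.893, 0.454 and 0.618 RPM in shControl, and the groups did not overlap. It had 1.29, 1.40 and 0.862 RPM in BTLA low, against 0.964, 0.659 and 1.20 RPM in BTLA high, where they overlapped. Neither change passed, with a log2 fold change of -0.64 in the knockdown (limma adjusted p = 0.562) and of 0.31 in the sort (0.463). The gene overlaps ERCC1 on the opposite strand, at 137 to 157 RPM in the group means. The sources used here name no strand setting, so reads of the pair cannot be told apart, which holds for each overlapping pair below.

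FOSL2, which encodes FRA2, was lower in BTLA low cells. It had 55.0, 75.7 and 60.8 RPM in BTLA low, against 82.7, 77.8 and 100.6 RPM in BTLA high. BTLA low 2 came close to BTLA high 2, but the groups did not overlap. Its log2 fold change was -0.45 (SE 0.14, limma adjusted p = 0.0381). The call was lost without BTLA low 1 (adjusted p = 0.121), BTLA low 3 (0.127), BTLA high 1 (0.101) or BTLA high 3 (0.0555). In the knockdown FOSL2 had 63.3, 54.9 and 62.5 RPM in shBTLA, against 125, 65.2 and 79.8 RPM in shControl. The shControl libraries were spread widely, with shControl 1 the highest, and the log2 fold change of -0.53 did not pass (adjusted p = 0.432). The gene overlaps AC104695.2 on the opposite strand and AC104695.4 on the same strand, at up to 0.528 and 0.12 RPM in the group means.

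**Figure D2:**
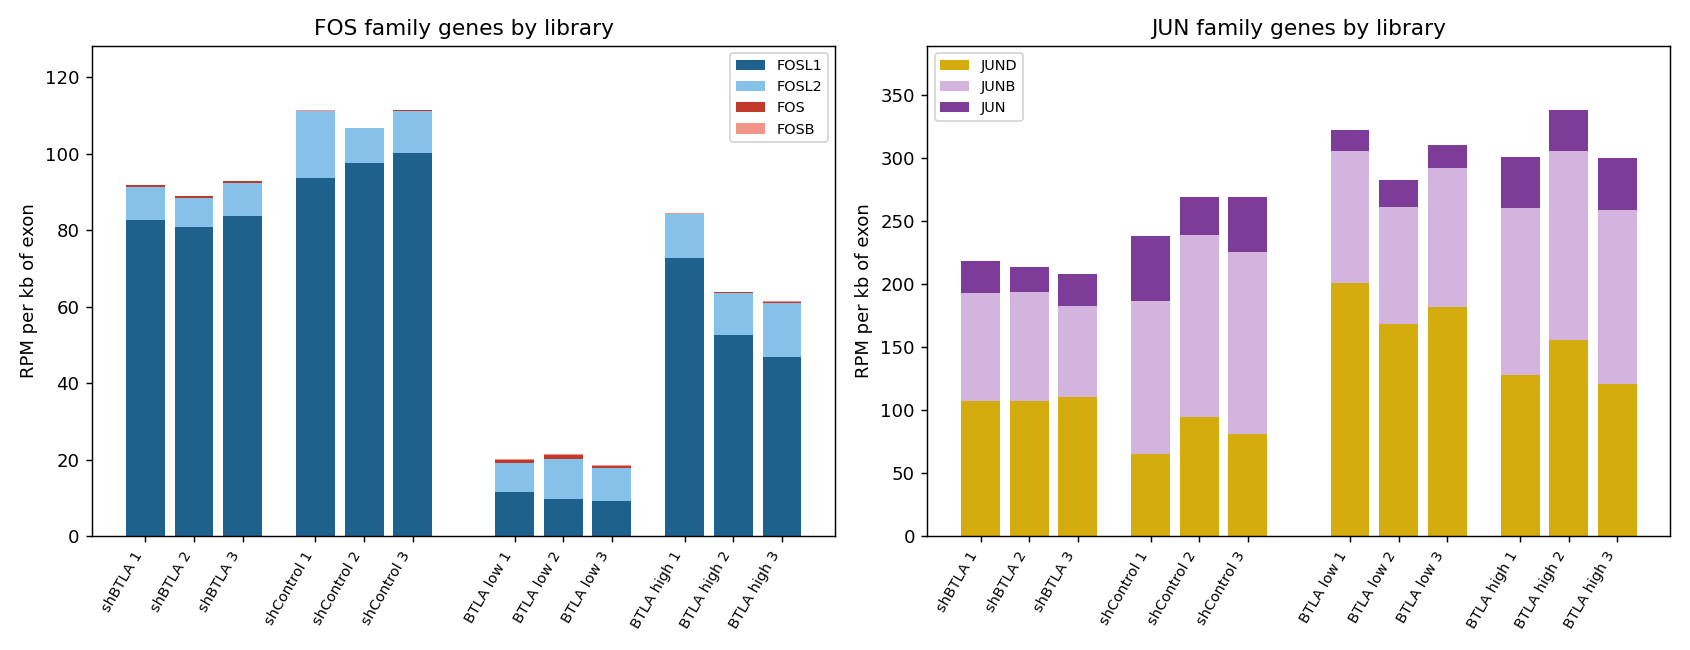
Summed level of the FOS family (left) and JUN family (right) in each library, in RPM per kilobase of annotated exon, so that genes of a bar can be compared roughly. Colours divide each bar by gene. In BTLA low the FOS family bars are short, at 18.6 to 21.4, against 61.4 to 84.5 in BTLA high, and FOSL2 takes 38.1%, 49.3% and 45.7% of them in replicates 1, 2 and 3, beside 57.1%, 44.9% and 49.7% for FOSL1.

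Divided by exon length, the levels of different genes can be set side by side only roughly. The length is that of all annotated exons of a gene, such as 3186 bases for FOS and 5553 for FOSB, and not of the transcripts expressed. FOSL1 made up 90.2% ± 0.511 of the summed level per kilobase of the FOS family in shBTLA and 88.4% ± 3.83 in shControl (SD, n = 3 each). It made up 50.6% ± 6.10 in BTLA low and 81.6% ± 4.88 in BTLA high. FOSL2 took up most of the rest, with 44.4% ± 5.72 in BTLA low and 17.8% ± 4.66 in BTLA high, although its own level was lower in BTLA low. FOS took 4.01% ± 0.499 in BTLA low and 0.314% ± 0.181 in BTLA high. The summed level of the family was 20.1 ± 1.43 RPM per kilobase in BTLA low and 69.9 ± 12.7 in BTLA high, and 91.3 ± 2.02 in shBTLA and 110 ± 2.71 in shControl. FOSL1 per kilobase stood at 0.912 to 1.5 times FOSL2 in BTLA low, against 3.34 to 6.29 times in BTLA high.

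JUN, which encodes c-Jun, the partner whose activity JNK raises by phosphorylation, was lower in BTLA low cells. It is encoded on chromosome 1 (GRCh38, 58780788 to 58784327, minus strand), and its window above holds TGACATCA, 67 bases before the start. It had 61.2, 78.3 and 68.2 RPM in BTLA low 1, 2 and 3, against 144, 119 and 150.4 RPM in BTLA high 1, 2 and 3. The groups lay well apart. This is a log2 fold change of -0.99 (SE 0.12, limma adjusted p = 0.00054), and it passed under all 13 alternatives.

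In the knockdown JUN had 92.4, 73.5 and 93.9 RPM in shBTLA 1, 2 and 3, against 187, 110.3 and 158 RPM in shControl 1, 2 and 3. The groups did not overlap, and shControl 2 was the lowest of its group. Its value of -0.78 (SE 0.20, 95% interval -1.24 to -0.33) did not pass, with an adjusted p of 0.136 from limma. Without shControl 2 it was -0.997 and passed (adjusted p = 0.0062), and with median scaling it was -0.74 and passed (adjusted p = 0.0367).

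JUNB, often a weaker activator than JUN and in some settings its antagonist, fell in both experiments. It is encoded on chromosome 19 (GRCh38, 12791486 to 12793315, plus strand). It had 156, 157 and 132 RPM in shBTLA 1, 2 and 3, against 223, 264 and 264 RPM in shControl 1, 2 and 3. All shBTLA libraries were below all shControl libraries. The log2 fold change was -0.75 (SE 0.12, limma adjusted p = 0.0261). This call was lost without shBTLA 1 (adjusted p = 0.140), shBTLA 2 (0.124), shBTLA 3 (0.177) or shControl 3 (0.180), and with median scaling (0.130).

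In the sort JUNB had 191, 169 and 201 RPM in BTLA low, against 243, 274 and 253 RPM in BTLA high. The groups did not overlap, and the log2 fold change of -0.46 (SE 0.09, limma adjusted p = 0.0054) passed under all 13 alternatives. JUNB overlaps HOOK2 on the opposite strand. HOOK2 averaged 25.6 ± 1.20 RPM in shBTLA and 36.1 ± 8.19 in shControl, and 41.4 ± 4.05 RPM in BTLA low and 34.6 ± 0.702 in BTLA high (SD, n = 3 each), a change of -0.47 on the log2 scale in the knockdown (adjusted p = 0.350) and of 0.25 in the sort (adjusted p = 0.0915). The part of HOOK2 reads in the JUNB values was not tested.

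JUND, the member of the family most steadily present in resting cells, was higher in BTLA low cells. It is encoded on chromosome 19 (GRCh38, 18279760 to 18281622, minus strand), and its window holds TGACGTCA 200 bases before the start. It had 388, 324 and 351 RPM in BTLA low 1, 2 and 3, against 247, 299.8 and 232 RPM in BTLA high 1, 2 and 3. The groups did not overlap. Its log2 fold change was 0.45 (SE 0.11, limma adjusted p = 0.0148). With median scaling it was 0.19 and did not pass (adjusted p = 0.402), and it did not pass without BTLA low 1 (0.0569), BTLA low 3 (0.0596) or BTLA high 1 (0.0764).

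In the knockdown JUND had 207, 207 and 213 RPM in shBTLA, against 125, 182 and 157 RPM in shControl. The shBTLA libraries were nearly alike and all above the shControl libraries, which were spread. Its log2 difference of 0.45 (SE 0.14) did not pass, with an adjusted p of 0.240 from limma, and passed without shControl 2 (0.58, adjusted p = 0.0348). The JUND changes, knockdown minus sort, differed by -0.0037 on the log2 scale, with a 95% interval of -0.41 to 0.40.

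The summed JUN family differed less than its makeup. It reached 305 ± 20.4 RPM per kilobase in BTLA low and 313 ± 21.9 in BTLA high, and 213 ± 5.08 in shBTLA and 259 ± 17.7 in shControl (SD, n = 3 each). JUND took 60.2% ± 1.96 of it in BTLA low and 42.9% ± 2.93 in BTLA high, and 50.8% ± 1.96 in shBTLA and 30.9% ± 3.97 in shControl. JUNB took 33.5% ± 1.59 in BTLA low and 44.8% ± 1.05 in BTLA high, and 38.0% ± 3.0 in shBTLA and 52.7% ± 1.48 in shControl. JUND over JUNB per kilobase was 1.66 to 1.93 in BTLA low, against 0.872 to 1.04 in BTLA high. It was 1.25 to 1.53 in shBTLA, against 0.535 to 0.656 in shControl, so the libraries of a pair of groups were apart in this ratio in both experiments. JUN took 6.32% ± 1.23 in BTLA low and 12.3% ± 2.23 in BTLA high, and 11.2% ± 1.53 in shBTLA and 16.4% ± 5.19 in shControl.

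ATF3, a stress-induced subunit that often represses, was higher in BTLA low cells. It had 14.5, 14.7 and 15.2 RPM in BTLA low 1, 2 and 3, against 9.13, 8.05 and 9.04 RPM in BTLA high 1, 2 and 3. The libraries of each group were close together and the groups far apart. This is a log2 fold change of 0.75 (SE 0.12, limma adjusted p = 0.0019), and it passed under all 13 alternatives. In the knockdown ATF3 had 6.63, 6.51 and 6.73 RPM in shBTLA, against 7.24, 4.54 and 6.91 RPM in shControl. Here the groups overlapped, with a log2 fold change of 0.12 (95% interval -0.36 to 0.59, adjusted p = 0.880), and -0.09 without shControl 2.

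BATF3, a small subunit without an activation domain that is known for dendritic cell development, was lower in BTLA low cells. It had 8.85, 6.70 and 8.37 RPM in BTLA low, against 12.9, 13.9 and 10.6 RPM in BTLA high, with no overlap. The log2 fold change was -0.64 (SE 0.16, limma adjusted p = 0.0164). It did not pass without BTLA low 3 (0.0512), BTLA high 1 (0.0765) or BTLA high 2 (0.0569). In the knockdown BATF3 had 11.1, 14.1 and 9.89 RPM in shBTLA, against 6.45, 12.4 and 8.37 RPM in shControl. These groups overlapped, and the log2 fold change was 0.40 (adjusted p = 0.666). The signs of its values were opposite in the experiments, but their difference of 1.04 (SE 0.31) did not pass (adjusted p = 0.0819).

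MAFF, a small MAF protein that likewise has no activation domain, had 7.11, 7.47 and 6.50 RPM in BTLA low, against 4.91, 5.25 and 5.40 RPM in BTLA high. The groups did not overlap. The log2 fold change of 0.43 (SE 0.14) passed narrowly, with an adjusted p of 0.0474 from limma. It was 0.17 (adjusted p = 0.345) with median scaling. It did not pass without BTLA low 1 (adjusted p = 0.113), BTLA low 2 (0.134), BTLA low 3 (0.0903), BTLA high 1 (0.158) or BTLA high 2 (0.0992). MAFF overlaps PLA2G6 on the opposite strand, which rose in the same libraries, to 13.2 ± 1.63 RPM in BTLA low and 6.01 ± 0.891 in BTLA high (SD, n = 3 each; log2 fold change 1.12, adjusted p = 0.0011). The part of PLA2G6 in the reads of MAFF was not tested. In the knockdown MAFF had 5.13 to 6.68 RPM in shBTLA, against 4.37 to 6.80 in shControl, which overlapped (adjusted p = 0.835).

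**Figure D3:**
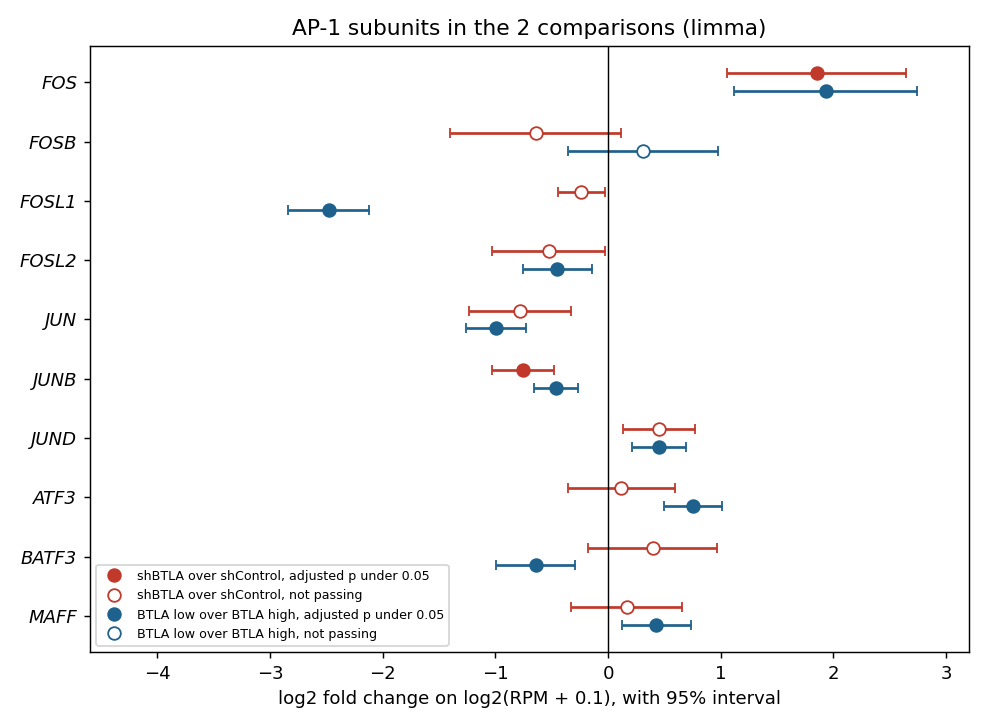
Log2 fold change on log2(RPM + 0.1) of each AP-1 subunit (horizontal axis) with its 95% interval, in shBTLA over shControl (red, upper) and BTLA low over BTLA high (blue, lower); filled points passed an adjusted p under 0.05 and open points did not. FOSL1 is the subunit whose intervals stand farthest apart, at -0.24 and -2.48.

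The order of the levels per kilobase, which rests on the same annotated exon lengths, differed between the groups at its top. In shBTLA it was JUND (108 ± 1.68), FOSL1 (82.4 ± 1.40), JUNB (81.1 ± 7.91), JUN (23.9 ± 3.14) and FOSL2 (8.41 ± 0.645), and FOSL1 and JUNB overlapped. In shControl it was JUNB (137 ± 13.02), FOSL1 (97.1 ± 3.25), JUND (80.2 ± 14.8), JUN (41.9 ± 10.7) and FOSL2 (12.6 ± 4.34), and FOSL1 and JUND overlapped. In BTLA low it was JUND (184 ± 16.5), JUNB (102 ± 8.72), JUN (19.1 ± 2.37), FOSL1 (10.1 ± 1.21) and FOSL2 (8.91 ± 1.49), and FOSL1 and FOSL2 overlapped. In BTLA high it was JUNB (140 ± 8.81), JUND (135 ± 18.4), FOSL1 (57.4 ± 13.5), JUN (38.0 ± 4.59) and FOSL2 (12.2 ± 1.68), and JUNB and JUND overlapped (all SD, n = 3). JUND thus led in shBTLA and BTLA low. The last places went to ATF3, BATF3, MAFF, FOS and FOSB in each group, at 0.0668 to 4.86 RPM per kilobase, where ATF3 and MAFF overlapped in shControl, and FOS and FOSB in shControl and in BTLA high.

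**Figure D4:**
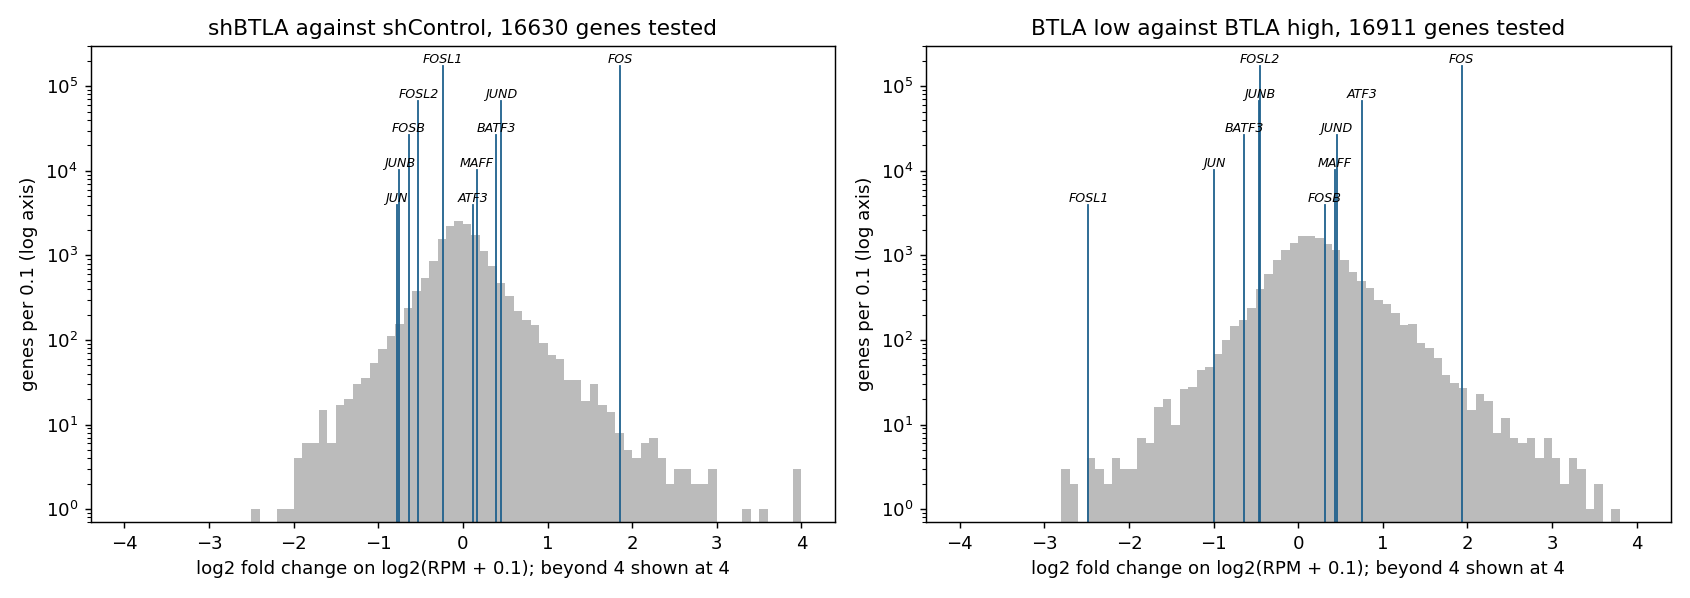
Log2 fold changes of all genes tested (grey, number of genes per 0.1 on a log axis) in shBTLA against shControl (left, 16630 genes) and BTLA low against BTLA high (right, 16911 genes), with a blue line at each AP-1 subunit. In the sort the bulk of genes lies right of 0, with a median of 0.18, while FOSL1 lies at the left edge.

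The median of all genes in the sort was 0.18, and median scaling, which sets the libraries to a common median, moved it to -0.08. The number of genes that passed was then 1617 higher and 3096 lower, beside 3238 higher and 1057 lower without it. Under that scaling FOSL1 (-2.74), JUN (-1.25), BATF3 (-0.90), JUNB (-0.72) and FOSL2 (-0.71) fell, FOS (1.70) and ATF3 (0.49) rose, and JUND and MAFF did not pass. No subunit changed its sign in the sort.

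Over the 12 libraries, with each experiment centred on its own mean, some subunits moved together. The Pearson correlation on log2(RPM + 0.1) was 0.90 between FOSL2 and JUN, -0.95 between JUN and JUND and -0.95 between FOSL2 and JUND. These are descriptions over points that share libraries and depth and include the group differences. Among the shControl libraries, shControl 1 had the most JUN and FOSL2 and the least JUND, and shControl 2 the reverse. Of 12376 genes with at least 30 reads in each library, ENTPD2 was most like FOS (r = 0.98), MSANTD3 most like FOSL1 (r = 0.99), ETS2 most like JUN (r = 0.99) and GLIPR2 most like JUNB (r = 0.97), followed there by COL6A1 and COL6A2. For JUND it was C1QL4 (r = 0.98), for FOSL2 LARP1 (r = 0.99), for ATF3 ZBTB25 (r = 0.97), for BATF3 B4GALT7 (r = 0.98) and for MAFF GPRC5A (r = 0.96).

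Other bZIP genes can pair with AP-1 subunits or bind like sites. In BTLA low 6 of 26 rose and 3 fell, beside 19.1% and 6.25% of all genes. CEBPD (144.7 ± 11.1 RPM in BTLA low and 66.1 ± 9.18 in BTLA high), JDP2, which represses through AP-1 sites, BACH2 and CEBPA rose, while ATF5, NFE2L3 and MAF fell. Without BTLA low 3 the higher genes were 2, with BACH2, CEBPA, ATF4 and ATF7 no longer passing, without BTLA high 1 they were 3, and without BTLA high 3 they were 13. They were 4 under median scaling, with the replicate block or without BTLA low 1. CEBPD, JDP2, ATF5, NFE2L3 and MAF passed in all of these. All genes gave 1618 higher without BTLA low 3, 1578 without BTLA high 1 and 4603 without BTLA high 3, beside 3238 with all libraries. They gave 1617 higher under median scaling, 1726 with the replicate block and 2323 without BTLA low 1. In shBTLA, where 1.47% of all genes passed, 0 of 27 rose and 1, MAF, fell, to 1.01 ± 0.288 RPM in shBTLA against 3.53 ± 0.771 in shControl (SD, n = 3 each; log2 fold change -1.72, adjusted p = 0.0281 from limma). At an unadjusted p under 0.05, 3 were higher and 4 lower there, beside 898 and 892 of all 16630 genes, and limma voom gave 0 higher and 1 lower. The call of MAF was lost with any 1 of the shBTLA libraries or shControl 3 left out (adjusted p up to 0.170). The median log2 fold change of the list was -0.07 in the knockdown and 0.24 in the sort.

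Of 29 MAPK genes and regulators upstream of AP-1, 0 passed in the knockdown, beside 1.47% of all genes. At that share, 0 in a list of this size says little. At an unadjusted p under 0.05, 0 were higher and 3 lower there, beside 898 and 892 of all 16630 genes, and limma voom called 0. In the sort 4 rose and 3 fell, a share close to the 25.4% of all genes. Under median scaling 1 rose and 7 fell, where 1617 of all genes were higher and 3096 lower. Leaving out a library other than BTLA high 3 gave 1 to 2 higher and 1 to 2 lower genes. All genes then gave 1578 to 2323 higher and 418 to 821 lower. Without BTLA high 3 there were 7 higher and 4 lower, beside 4603 and 1382 of all genes. MAP2K6, a kinase that activates p38, averaged 53.4 ± 2.14 RPM in BTLA low and 27.5 ± 2.45 in BTLA high, and RPS6KA4, a kinase activated by ERK and p38, 105 ± 3.75 RPM in BTLA low and 174 ± 7.89 in BTLA high (SD, n = 3 each). MAP2K6 rose by 0.96 on the log2 scale (adjusted p = 0.00026), RPS6KA4 fell by 0.72 (adjusted p = 0.00028), and both passed under all 13 alternatives. MAPK3, which encodes ERK1, was 0.29 higher (adjusted p = 0.0346), and under median scaling 0.03 (adjusted p = 0.863). Without BTLA high 1, only MAP2K6 and RPS6KA4 of the 7 passed. SRF, the serum response factor, fell by 0.37 on the log2 scale (adjusted p = 0.0220) and did not pass on the deposited RPKM, with the replicate block, or without BTLA low 1, BTLA low 3 or BTLA high 1 (adjusted p up to 0.0978).

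Of the other immediate early genes, 0 of 25 passed in the knockdown, beside 1.47% of all genes, so 0 says little here too. At an unadjusted p under 0.05, 3 were higher and 5 lower there, beside 898 and 892 of all 16630 genes, and limma voom called 0. In the sort 4 of 26 rose and 5 fell, beside 19.1% and 6.25% of all genes, so the list moved in both directions, as all genes did. NR4A1, an orphan nuclear receptor, averaged 14.6 ± 0.135 RPM in BTLA low and 2.83 ± 0.799 in BTLA high (SD, n = 3 each; log2 fold change 2.36, adjusted p = 9.6e-05 from limma). NR4A2 (1.56), DUSP5 (0.74) and HES1 (0.65) rose with it, HES1 not under median scaling (adjusted p = 0.111) or without BTLA low 3 or BTLA high 1. SGK1 (-1.46), GADD45B (-0.85), CCN1 (-0.74) and DUSP1 (-0.56), whose product dephosphorylates MAPKs, fell.

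The list of genes known to carry AP-1 sites holds some of them only and was chosen with earlier results of these data known. In BTLA low 2 of its 19 genes rose (SPP1, 0.48, and VEGFA, 0.42) and 8 fell, beside 19.1% and 6.25% of all genes, with a median of -0.22 over the list, beside 0.18 over all genes. Under median scaling, where 1617 of all genes were higher and 3096 lower, 1 of the list rose and 12 fell. Leaving out each library gave 1 to 2 higher and 5 to 7 lower, beside 1578 to 4603 and 418 to 1382 of all genes. PLAU, the urokinase plasminogen activator, averaged 46.8 ± 2.39 RPM in BTLA low and 87.1 ± 4.95 in BTLA high, and the cytokine IL11 5.87 ± 0.365 RPM in BTLA low and 12.3 ± 0.228 in BTLA high (SD, n = 3 each). On the log2 scale PLAU changed by -0.89 (limma adjusted p = 0.000199) and IL11 by -1.05 (0.000464), and VIM, which encodes vimentin (-0.74), and CCND1, which encodes cyclin D1 (-0.42), fell too. VEGFA was not called under median scaling (0.16, adjusted p = 0.183) or without BTLA low 2, BTLA low 3, BTLA high 1 or BTLA high 2. SPP1, VEGFA, PLAU, VIM and CCND1 overlap other annotated genes, so reads of a neighbor may be counted with theirs or lost. The same holds for KRT7, KRT8, KRT18, JDP2, BACH2, CEBPA, ATF5, ATF7, NFE2L3, MAP2K6, RPS6KA4, NR4A1, SGK1 and DUSP1 above.

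In shBTLA 0 of 20 rose and 1 fell, beside 0.782% and 0.686% of all genes, with a median of -0.23 beside -0.02 over all genes. That gene was IL11, with 5.16 ± 1.01 RPM in shBTLA and 11.9 ± 0.210 in shControl (SD, n = 3 each), a change of -1.20 on the log2 scale (limma adjusted p = 0.0204). At an unadjusted p under 0.05, 3 of the list were higher and 6 lower, beside 898 and 892 of all 16630 genes, and limma voom gave 0 higher and 1 lower. With any 1 shBTLA library or shControl 3 left out IL11 did not pass, with adjusted p up to 0.143. With all libraries IL11 fell in both experiments, as did JUNB, MAF and CLDN4. The share of all genes lower in both was not counted.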

How the data were processed

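The deposited RPKM values cover 12 libraries. Per the labels and methods, the authors removed adaptors with Trim Galore 0.6.6, mapped to GRCh38 with STAR, assigned reads to genes by featureCounts and compared groups with edgeR. The deposited comparison tables hold those tests, which were not used, and other columns, of which gene positions (start and end) and names were. The sources used here give no setting for strand or for reads that map more than once. The RPKM carry the span of another gene (that at the same place in the sorted ID list). With that span, 100% of 279884 values above 0 were whole reads within 0.02. These reads gave RPM. For 1056 other genes a span was searched. Values of 2 reads (26641) outnumbered values of 1 (17615), and all 12 FOS counts were even, so a read may be 1 end of a pair, and low counts then hold fewer molecules.

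A gene needed 10 reads or more in 3 of the 6 libraries. The fit on log2(RPM + 0.1) used limma 3.58.1 (eBayes, trend = TRUE) in R 4.3.3, each experiment alone, with Benjamini-Hochberg adjustment over all genes tested. The difference of the comparisons was a contrast over the 12 libraries. The fit was tested on simulated data. Exon lengths are unions of GENCODE exons. Python 3.11.15 was used for the rest. Groups and replicate numbers came from the labels. The members and gene lists were chosen with earlier results of these data known. Some genes known to carry AP-1 sites are not reported here and were left out of that list and its counts. From each list up to 4 genes per direction with the smallest adjusted p were named, and the 3 genes with the highest correlation were sought for each subunit that passed. The alternatives were a pseudocount of 1, no filter, 30 reads, median scaling, voom, the RPKM as they stand, a replicate block and leaving out each library.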

Additional observations from a re-analysis of the deposited data

Results flagged for a closer look

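The change of FOSL1 differed between the experiments. The log2 fold change in the knockdown minus that in the sort was 2.24 (SE 0.19, 95% interval 1.82 to 2.66, limma adjusted p = 0.00036), from -0.24 in shBTLA against shControl and -2.48 in BTLA low against BTLA high. FOSL1 was lower in each of the 3 shBTLA libraries than in any shControl library, and lower in each of the 3 BTLA low libraries than in any BTLA high library, though its change in the knockdown did not pass (limma adjusted p = 0.378) and 8.77% of all genes were lower without overlap there. The experiments share no library and differ in how the cells were obtained, which cannot be told apart from the difference in FOSL1.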

How the results depend on the processing

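In the sort FOS, FOSL1, JUN, JUNB and ATF3 passed under all 13 alternatives, and in the difference of the experiments FOSL1 passed under all 18. The number of subunits that rose in BTLA low was 2 with median scaling and 2 with the replicate block, and the number that fell was 3 with the RPKM as they stand and 3 with the block. In the knockdown 0 rose with no filter, voom or the RPKM as they stand, 0 fell with the RPKM, and 2 fell with the block. Leaving out each library in turn gave 0 to 2 higher and 0 to 2 lower subunits in the knockdown, 2 to 4 and 3 to 5 in the sort, and 1 to 3 in the difference. The 3 in the difference came without shControl 2, where 622 of all genes were higher and 1888 lower. Among all genes, the knockdown gave 130 higher and 114 lower, 70 and 45 with the RPKM, 260 and 285 with the block, and 22 to 291 and 3 to 263 without 1 library. The sort gave 3238 and 1057, 1617 and 3096 with median scaling, 1889 and 639 with the RPKM, 1726 and 461 with the block, and 1578 to 4603 and 418 to 1382 without 1 library. ATF3 in the knockdown turned to -0.0935 without shControl 2, in a range of -0.0935 to 0.238 over the libraries left out. The cause of these shifts between settings was not tested.

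To look for pairing, the deviations of libraries from their own group means were correlated over genes. For same-numbered libraries this gave 0.22, 0.41 and -0.04 in the knockdown and 0.07, -0.37 and -0.16 in the sort. Libraries with unlike numbers gave -0.40 to 0.26 and -0.29 to 0.41. Not every same-numbered pair was above 0.1 and the labels name nothing shared, so the numbers were not taken as pairs. Whether replicates shared a culture or day is not given in the sources used here. With the replicate block JUN also fell in shBTLA (adjusted p = 0.0031), and JUND, MAFF, FOSL2 and BATF3 did not pass in the sort. Depth limits FOS and FOSB most, with 6 to 14 FOS reads in shControl.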
